A study of Rattus norvegicus with 22 samples.

Results

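The 10 genes described here let rat cells sense oxygen or carry part of the hormonal answer to its lack. They are the HIF subunit genes Hif1a, Epas1 and Arnt, the prolyl hydroxylase genes Egln1, Egln2 and Egln3, the ubiquitin ligase gene Vhl, the hormone gene Epo with its receptor gene Epor, and the peptide hormone gene Adm. They were chosen by symbol in the deposited table of raw read counts, and all 10 symbols were found among its 32883 genes. RNA was sequenced from the ventral part of the cervical spinal cord, segments C3-C6, of 22 young adult Sprague-Dawley rats. They comprised 5 males with testes (intact males), 5 males with both testes removed (GDX males), 6 virgin females with ovaries (intact females) and 6 virgin females with both ovaries removed (OVX females). Tissue was taken 2 weeks after surgery, under deep isoflurane anaesthesia and after perfusion with cold saline. For the intact rats, which matched the operated rats in age, the sources used here name no sham operation. The comparisons ask how the loss of the gonads changes transcript levels in a cord region that holds the motor neurons of breathing.

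As background, the transcription factor HIF joins an oxygen-dependent alpha subunit to a stable partner, ARNT. While oxygen is plentiful, prolyl hydroxylases mark the alpha subunit and VHL has it destroyed, so the alpha subunits are controlled mainly as proteins, which RNA counts do not measure. When oxygen falls the alpha subunit persists and turns on targets such as Epo and Adm, and low oxygen is also a known stimulus for plasticity of breathing circuits in this cord region.

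The libraries held 12371756 to 17571887 counted reads, with medians of 14196615 and 15645521 in intact and GDX males and of 14640726 and 14766802.5 in intact and OVX females. By their average input fragment size the libraries fall into a short class of 15 and a long class of 7. All 7 long-fragment libraries are from intact rats (intact males 1, 3 and 6 and intact females 2, 3, 5 and 6), so the class differs between intact and operated rats. Among the intact rats, with sex in the model, edgeR called 1 of 14937 genes between the classes at an adjusted p under 0.1 (0.00669 percent), and that gene is none of these 10. Of the 8 genes tested, Egln1 had the largest class difference, 0.11 log2 units higher in long-fragment libraries (SE 0.05, unadjusted p = 0.0385, edgeR adjusted p = 0.602). The labelled tissue was checked against markers of spinal cord cells, which had reads in every group. In intact males the summed level was 23588 ± 1379 CPM (counts scaled to library size; SD, n = 5) for 6 oligodendrocyte markers, led by Mbp, and 5498 ± 246.6 CPM for 7 astrocyte markers, led by Gfap. The 6 neuron markers summed to 6193 ± 854.3 CPM, led by Nefl, and the 6 motor neuron markers to 446.4 ± 118.5 CPM, led by Prph. None of these markers was at 0. In the same model of the intact rats, all 6 motor neuron markers had a higher level in long-fragment libraries (log2 differences of 0.31 to 0.55, unadjusted p of 0.00201 to 0.0365), as had 3 of 6 neuron markers at an unadjusted p under 0.05, while 1 neuron marker had a lower one. edgeR called none of these 12 markers between the classes, and 7.71 percent of all genes had an unadjusted p under 0.05.

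Of the 10 genes, 8 had enough reads to be tested in each comparison, and Epo and Epor did not. Transcript levels of the 8 tested genes are given in CPM scaled by the trimmed mean of M-values, and a gene is called where the edgeR quasi-likelihood test, adjusted over all genes by Benjamini-Hochberg, gives an adjusted p under 0.1. In males, GDX against intact, 2 of the 8 rose (Epas1 and Adm) and 0 fell, against 13.4 percent of all 14931 genes called in either direction and 6.78 percent called higher. In females, OVX against intact, edgeR called 0 of the 8, DESeq2 also called 0, and 1 (Epas1) had an unadjusted p under 0.05, as had 10.2 percent of all genes. Across the genome that comparison called 5 of 14910 genes, or 0.0335 percent. Between the intact sexes 1 of the 8 (Adm) was lower in males, against 4.01 percent of 14937 genes called either way and 2.56 percent called lower. Between gonadectomized sexes edgeR and DESeq2 each called 0 of the 8, and 0 had an unadjusted p under 0.05, as 9.37 percent of all genes had, with 0.232 percent of 15084 genes called by edgeR. The interaction, the GDX effect in males minus the OVX effect in females, called 0 of the 8 by edgeR or DESeq2 and gave 1 (Adm) an unadjusted p under 0.05, as it did 11.6 percent of all genes, with 0.116 percent of 15562 genes called by edgeR. Single rats moved the counts over all genes: without GDX male 5 the male count of 1995 became 1202, without intact male 1 or 5 the intact count of 599 became 352 or 385, without OVX female 1 the count of 35 between gonadectomized sexes became 23, and without intact female 1 the female count of 5 became 113. The interaction count of 18 became 1 without GDX male 5, 275 without GDX male 1, 111 without GDX male 2 and 108 without intact female 1. With counts as small as 1 or 2 of 8, these shares describe single genes and not the group as a whole.

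The median log2 difference of the 8 genes lay close to that of all genes in each comparison. It was 0.02 in males, where the median of all genes was 0.0021, and -0.0036 in females, where that of all genes was 0.0025. Between intact sexes it was -0.05 against 0.0028, between gonadectomized sexes -0.02 against -0.00028, and for the interaction 0.03 against 0.0017. These comparisons share rats: the male and female comparisons each share an intact group with the comparison of intact sexes and an operated group with that of gonadectomized sexes, and the interaction uses all 22 rats. The plot of the 5 comparisons sets each gene's difference beside its interval, and the Adm intervals are the widest in all of them.

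**Figure D1:**
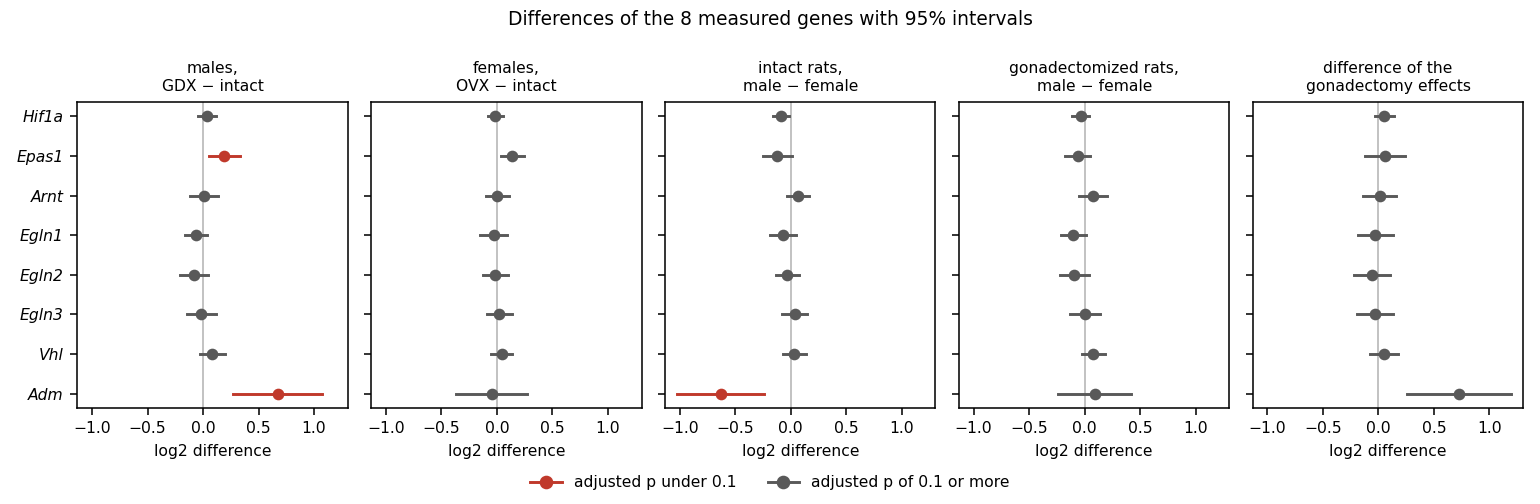
Log2 difference (x axis) of the 8 tested genes (y axis) in 5 comparisons, with points for edgeR estimates, lines for 95 percent confidence intervals and red for an adjusted p under 0.1. Adm stands at 0.67 in males and -0.63 between intact sexes, and Epas1 at 0.19 in males, while the other 6 genes have no red point.

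Hif1a (ENSRNOG00000008292) encodes HIF-1 alpha, the oxygen-regulated subunit found in most cells. Its level in intact males was 112.9, 109.9, 113.6, 115.8 and 110.3 CPM in rats 1, 2, 3, 5 and 6, and in GDX males 117.2, 112.6, 115.4, 114.8 and 118.4 CPM in rats 1, 2, 4, 5 and 6. Intact females had a lowest, median and highest level of 116.9, 119.8 and 123.2 CPM, and OVX females 115.4, 118.2 and 122.4 CPM. Every intact male was below every intact female, while GDX and intact males overlapped, as did OVX and intact females. Non-overlap of this kind between intact sexes held for 1 of the 8 genes tested, Hif1a, and for 2.73 percent of all 14937 genes. The male minus female log2 difference in intact rats was -0.09 (SE 0.03, n = 5 and 6, edgeR adjusted p = 0.198) and was not called, by DESeq2 either (adjusted p = 0.171). In the gonadectomized sexes, where 0 of the 8 genes and 1.32 percent of 15084 genes showed no overlap, the Hif1a difference was -0.03. Its coefficient of variation over the 22 rats was 3.14 percent, the smallest of the 10 genes.

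Epas1 (ENSRNOG00000021318) encodes HIF-2 alpha, the alpha subunit known for its high level in blood vessel endothelium and for driving Epo. Its level in intact males was 165.9, 185.0, 202.5, 207.4 and 213.6 CPM in rats 1, 2, 3, 5 and 6, and in GDX males 247.4, 225.5, 200.5, 221.7 and 222.3 CPM in rats 1, 2, 4, 5 and 6. Only GDX rat 4 lay within the range of the intact males, and the other 4 GDX rats lay above all 5 of them. The group means were 194.9 ± 19.39 CPM in intact and 223.5 ± 16.67 CPM in GDX males (SD, n = 5 and 5). Epas1 thus rose by 0.19 log2 units (SE 0.07, 95 percent interval 0.05 to 0.34, edgeR adjusted p = 0.0908), with all 5 GDX rats above the intact mean. DESeq2 gave an adjusted p of 0.0414, but the call depends on single rats. It was kept without intact male 6 and without GDX male 4, and lost without each of the other 8 male rats, the adjusted p ranging from 0.0597 to 0.20 over the 10 fits. The lowest value of the log2 difference, 0.14, came without intact male 1. The call was also lost with no filter on low counts (adjusted p = 0.109), with the fragment class as a term (0.18, adjusted p = 0.296), among short-fragment libraries alone (0.18, adjusted p = 0.239) and with the rat number as a block (0.25, adjusted p = 0.107), all by edgeR. In males, here and for each gene below, both class fits set GDX rats against the same 2 short-fragment intact males. They are not separate checks. Rat numbers did not pair the rats, so the block, here and below, removes no pairing and leaves fewer degrees of freedom. Over the 8 other fits with an adjusted p, that p ranged from 0.0414 to 0.296.

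In females the Epas1 level was 194.1, 214.1 and 230.5 CPM (lowest, median, highest) in intact and 218.5, 229.1 and 250.8 CPM in OVX rats. All 6 OVX females were above the intact mean and 3 were above every intact female, so the groups overlapped. The log2 difference was 0.14 (SE 0.05, 95 percent interval 0.04 to 0.24, unadjusted p = 0.011, edgeR adjusted p = 0.329; n = 6 and 6), which was not called. Its interaction was 0.06 (edgeR adjusted p = 0.847), so a difference between the male and female effects was not detected, and among short-fragment libraries alone it was -0.01. Between intact sexes Epas1 differed by -0.12 (edgeR adjusted p = 0.373).

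The promoter windows of Hif1a and of Epas1 are printed here because HIF binds a short core, ACGTG or GCGTG, and because Epas1 was called together with Adm in males. Each window is 300 bases from RefSeq on the GRCr8 build, 250 bases before and 50 after the gene's start, written 5′ to 3′ along the gene in lower case with core matches on either strand in capitals. Hif1a lies on the plus strand (chr6:98359648-98359947) and Epas1 on the minus strand (chr6:13624680-13624979).
Hif1a: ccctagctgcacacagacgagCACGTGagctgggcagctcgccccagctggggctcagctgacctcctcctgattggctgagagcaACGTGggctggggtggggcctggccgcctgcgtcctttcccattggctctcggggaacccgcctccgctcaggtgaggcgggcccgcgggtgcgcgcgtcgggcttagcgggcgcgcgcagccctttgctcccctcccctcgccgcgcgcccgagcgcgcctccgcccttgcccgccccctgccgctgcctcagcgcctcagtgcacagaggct
Epas1: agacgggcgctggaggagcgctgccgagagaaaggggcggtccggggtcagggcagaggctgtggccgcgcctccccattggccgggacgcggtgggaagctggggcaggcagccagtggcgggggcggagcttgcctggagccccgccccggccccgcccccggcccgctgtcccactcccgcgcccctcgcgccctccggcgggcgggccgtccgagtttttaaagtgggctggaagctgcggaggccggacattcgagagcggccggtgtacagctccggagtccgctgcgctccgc
The Hif1a window holds 3 matches of ACGTG, of which 2 overlap on opposite strands within 1 run of capitals, and 0 of GCGTG. The Epas1 window holds 0 of either. Of all 33469 rat promoter windows, 19.3 percent hold ACGTG, 29.7 percent GCGTG and 41.6 percent at least 1 of them. All 10 genes had a window and 4 of 10 held a core: Hif1a, Arnt (1 GCGTG), Egln1 (1 of each) and Epo (1 GCGTG). A match is a description, not a site or a cause, and no match says only that these letters are not in this window.

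Arnt (ENSRNOG00000031174) encodes the stable partner that both alpha subunits need to bind DNA. Its mean level was 33.5 ± 1.29 and 33.9 ± 2.47 CPM in intact and GDX males (SD, n = 5 and 5) and 32.1 ± 1.53 and 32.2 ± 1.73 CPM in intact and OVX females (n = 6 and 6). The log2 difference in males was 0.01. Across all 22 rats Arnt ran from 29.7 to 36.0 CPM. In the plot of levels by rat, Hif1a and Arnt form flat bands beside the wider ones of Epas1 and Adm.

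**Figure D2:**
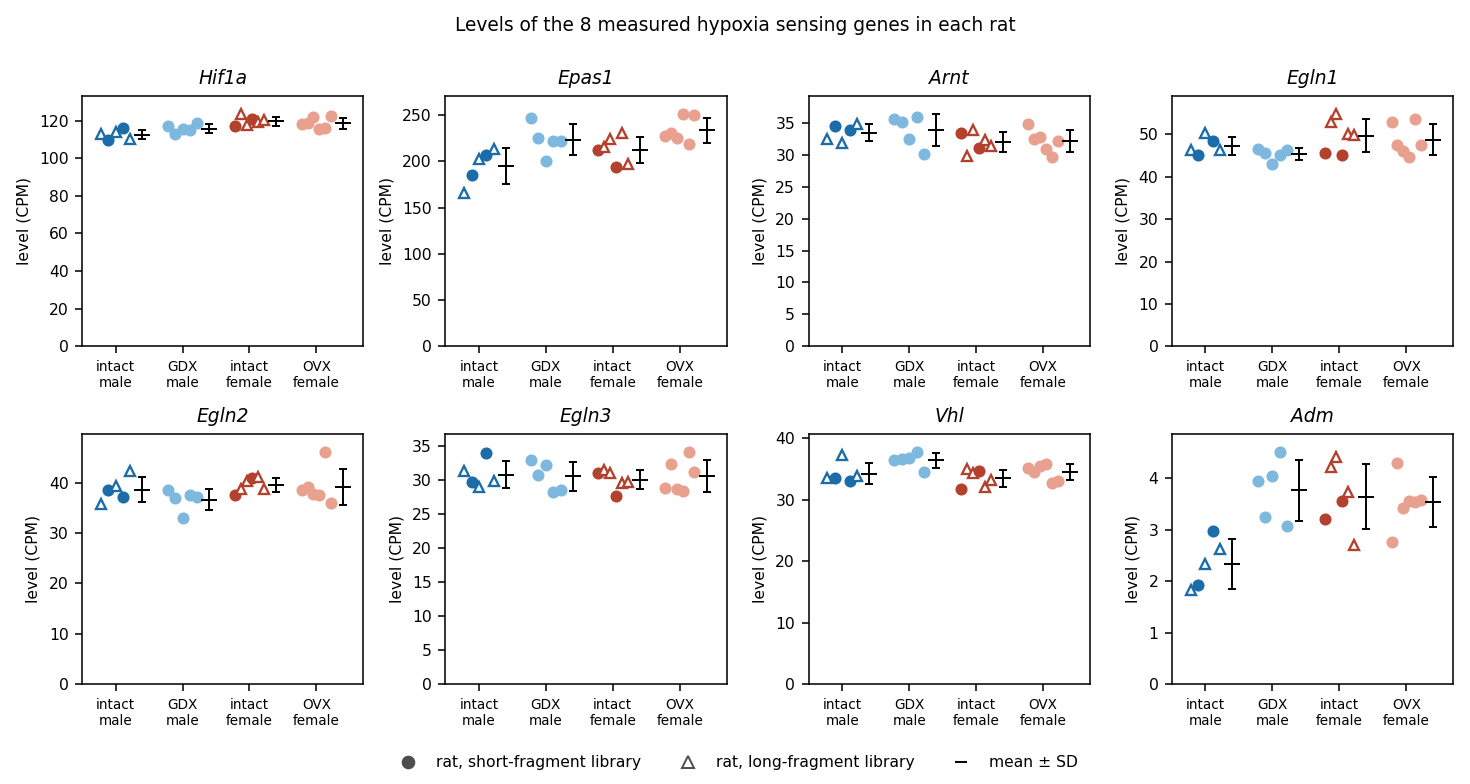
Level in CPM (y axis, from 0) of the 8 tested genes in each rat of 4 groups (x axis), with filled circles for short-fragment and open triangles for long-fragment libraries and black bars for the group mean ± SD. All 5 GDX males exceed all 5 intact males for Adm, and 4 of 5 do for Epas1.

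Prolyl hydroxylases of the pathway are encoded by 3 of the genes. Egln1 (ENSRNOG00000019773) encodes PHD2, the main oxygen sensor that marks HIF alpha under normal oxygen. Its mean was 47.3 ± 2.08 and 45.3 ± 1.41 CPM in intact and GDX males and 49.7 ± 3.84 and 48.7 ± 3.68 CPM in intact and OVX females. In males 2 of the 5 GDX rats were below every intact rat, and the log2 difference was -0.06 (SE 0.05, edgeR adjusted p = 0.447). Egln1 had the smallest p of the 8 genes between gonadectomized sexes, with a male minus female log2 difference of -0.10 (SE 0.05, unadjusted p = 0.0787, edgeR adjusted p = 0.586). The female difference of -0.03 turned to 0.10 with the fragment class as a term, and neither value was called.

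Egln2 (ENSRNOG00000020947) and Egln3 (ENSRNOG00000005053) encode PHD1 and PHD3, the latter known as a HIF target that feeds back on the pathway. Egln2 averaged 38.7 ± 2.46 and 36.7 ± 2.16 CPM in intact and GDX males, and 39.6 ± 1.42 and 39.2 ± 3.52 CPM in intact and OVX females. All 5 GDX males were below the intact male mean of Egln2, yet only 1 was below every intact male, and the log2 difference was -0.08 (SE 0.06, uncalled). Egln3 averaged 30.8 ± 1.98, 30.6 ± 2.13, 30.1 ± 1.44 and 30.6 ± 2.34 CPM in the same order. Its level ranged from 27.7 to 34.1 CPM over all 22 rats, and its log2 difference in males was -0.02. Neither gene was called in any of the 5 comparisons by edgeR or DESeq2.

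Vhl (ENSRNOG00000010258) encodes the protein that recognises hydroxylated HIF alpha and directs its breakdown. It averaged 34.2 ± 1.70 CPM in intact males and 36.4 ± 1.19 in GDX males, and 33.5 ± 1.38 and 34.4 ± 1.29 CPM in intact and OVX females. Each of the 5 GDX males lay above the intact male mean, but only 1 lay above every intact male, since intact male 3 reached 37.2 CPM. The log2 difference in males was 0.09 (SE 0.05, edgeR adjusted p = 0.345) and in females 0.05, and neither was called. The coefficient of biological variation of Vhl was 3.88 percent in the fit over all 22 rats. The median over 15562 genes, which were not matched to Vhl in level, was 8.95 percent. Among the 8 tested genes that coefficient was 3.58 percent for Hif1a, 4.90 for Arnt, 5.46 for Egln3, 5.63 for Egln2, 5.81 for Egln1, 7.33 for Epas1 and 13.8 for Adm.

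Epo (ENSRNOG00000001412) encodes erythropoietin, the hormone of red cell production made mainly in kidney and liver and at low levels in nervous tissue. It had 7 reads over all 22 libraries, and 18 libraries had 0. Of the 7, GDX male 6 held 1, intact female 2 held 3, OVX female 3 held 1 and OVX female 4 held 2. Intact males had 0 reads in 5 libraries, where the floor of 3 counts over the group is 0.0414 CPM and the 95 percent exact counting interval reaches 0.051 CPM, both of which cover counting error only. No group difference in Epo is detectable at this depth.

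Epor (ENSRNOG00000012619) encodes the erythropoietin receptor. It had 59 reads in 18 of 22 libraries, with 7 and 13 in intact and GDX males and 18 and 21 in intact and OVX females. Per library the counts ran from 0 to 8, and all groups overlapped. Summed over the rats of a group, the level was 0.0967 CPM in males with testes (95 percent exact counting interval 0.0389 to 0.199) and 0.17 CPM in those without (0.0905 to 0.291). For females it was 0.199 CPM with ovaries (0.118 to 0.315) and 0.233 CPM without (0.144 to 0.357). Two-sided exact permutation tests over rats gave p = 0.302 in males, 0.619 in females, 0.288 between intact sexes and 0.424 between gonadectomized sexes. The intervals cover counting error only, and these tests over rats detected no difference at this depth. The plot of reads by library shows how few reads lie behind both genes.

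**Figure D3:**
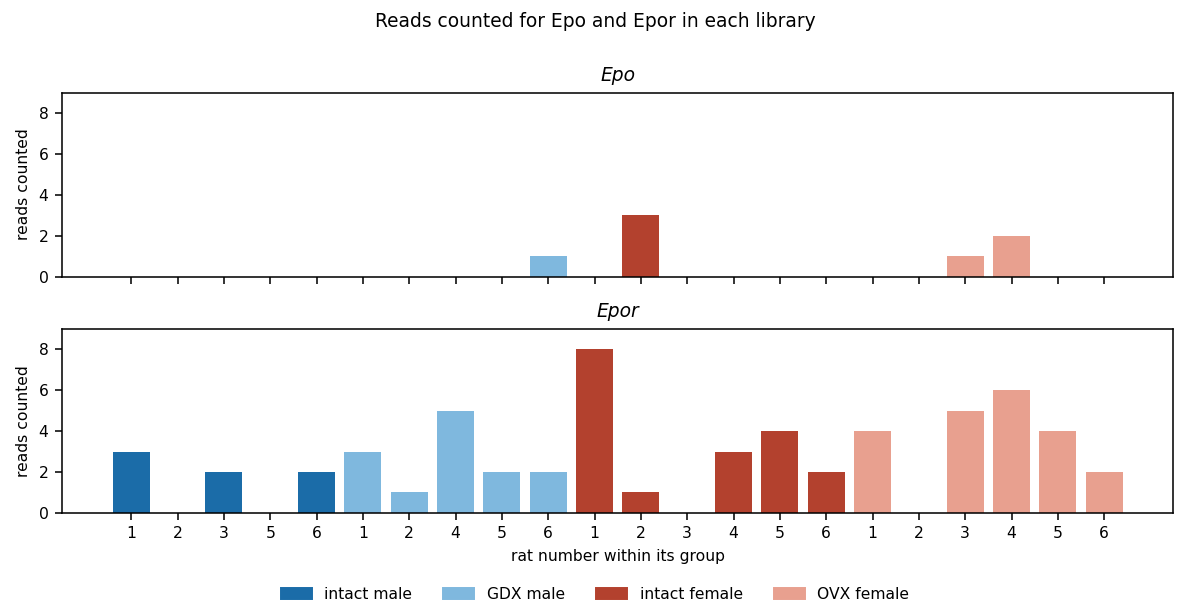
Reads counted (y axis) for Epo and Epor in each of the 22 libraries (x axis, rat number within its group), coloured by group, with no bar where the count is 0. The highest library has 3 reads for Epo and 8 for Epor.

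Adm (ENSRNOG00000027030) encodes adrenomedullin, a vessel-widening peptide induced by HIF under low oxygen. Its level in intact males was 1.83, 1.92, 2.34, 2.97 and 2.63 CPM in rats 1, 2, 3, 5 and 6, and in GDX males 3.96, 3.24, 4.05, 4.50 and 3.06 CPM in rats 1, 2, 4, 5 and 6. Every GDX male lay above every intact male, the nearest being GDX rat 6 and intact rat 5. Of the 8 tested genes only Adm showed this in males, against 7.17 percent of all 14931 genes. The reads behind it are few, 26 to 48 per intact and 47 to 64 per GDX library, but each library had reads. Adm rose by 0.67 log2 units in GDX males (SE 0.19, n = 5 and 5, 95 percent interval 0.27 to 1.07, edgeR adjusted p = 0.0385; DESeq2 adjusted p = 0.0202), from a mean of 2.34 ± 0.479 to 3.76 ± 0.597 CPM (SD). In bulk tissue, a rise of RNA per cell and a larger number of cells that make it cannot be told apart, here and for each gene described.

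The Adm call in males was kept in 9 of 10 fits that left out 1 rat, with log2 differences from 0.60 to 0.78. It was lost without GDX male 5 (0.60, edgeR adjusted p = 0.106). With the fragment class as a term the log2 difference was 0.61 (SE 0.26, edgeR adjusted p = 0.224). Among short-fragment libraries alone, with 2 intact males left, it was 0.61 (SE 0.26, edgeR adjusted p = 0.25). Neither fit called Adm, although the difference stayed near its size. Both estimates set GDX males against the same 2 short-fragment intact males, so they are not separate checks. The call was also lost with the rat number as a block (0.66, edgeR adjusted p = 0.125), although these numbers do not pair the rats. Within the intact males the 3 long-fragment libraries (1.83, 2.34 and 2.63 CPM) and the 2 short-fragment ones (1.92 and 2.97 CPM) overlapped. The long minus short difference of Adm in intact rats was 0.04 log2 units (SE 0.20, edgeR adjusted p = 0.987). Over the 8 other fits with an adjusted p, that p ranged from 0.012 to 0.25.

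The Adm promoter window is shown beside that of Epas1, since these were the 2 genes called together in males. It comes from the same RefSeq table of GRCr8 and lies on the plus strand (chr1:174179950-174180249).
Adm: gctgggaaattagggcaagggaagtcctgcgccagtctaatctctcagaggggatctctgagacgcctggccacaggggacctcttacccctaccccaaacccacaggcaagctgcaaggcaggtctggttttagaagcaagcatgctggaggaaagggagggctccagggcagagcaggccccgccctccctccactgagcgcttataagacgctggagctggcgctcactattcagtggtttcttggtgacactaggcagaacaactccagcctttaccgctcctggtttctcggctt
It holds 0 matches of ACGTG or GCGTG, as does the Epas1 window, and so has no capitals.

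In intact females Adm stood at 2.71, 3.64 and 4.41 CPM (lowest, median, highest), and in OVX females at 2.77, 3.55 and 4.30 CPM. The female groups overlapped fully, and of the 6 OVX rats only 1 was above the intact mean. None of the 8 tested genes showed separate groups in females, against 0.516 percent of 14910 genes. The log2 difference was -0.05 (SE 0.15, 95 percent interval -0.36 to 0.27, edgeR adjusted p = 0.959), and it took the other sign, 0.06, with the fragment class as a term or among short-fragment libraries alone. The difference between the sexes in the effect of gonadectomy, tested directly, was 0.72 log2 units (SE 0.23, 95 percent interval 0.25 to 1.19, unadjusted p = 0.00401, edgeR adjusted p = 0.194). It was not called in any fit, by edgeR or DESeq2, the adjusted p ranging from 0.149 to 0.378 over 22 fits that each left out 1 rat and from 0.155 to 0.569 over 7 other fits.

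Between intact sexes, Adm was lower in males, with a log2 difference of -0.63 (SE 0.18, n = 5 and 6, 95 percent interval -1.02 to -0.24, edgeR adjusted p = 0.0911; DESeq2 adjusted p = 0.0482). All 5 intact males lay below the intact female mean of 3.64 ± 0.630 CPM, and 4 of the 5 lay below every intact female. By edgeR the call was lost in 8 of 11 fits that left out 1 rat, being kept without intact male 5, intact female 1 or intact female 6. Over these 11 fits the adjusted p ran from 0.0714 to 0.211 and the log2 difference from -0.7346 to -0.5551. The call was also lost with no filter on low counts (-0.63, adjusted p = 0.119), with the fragment class as a term (-0.63, adjusted p = 0.108), with the rat number as a block (-0.64, adjusted p = 0.236) and among short-fragment libraries alone, with 2 rats per sex (-0.46, adjusted p = 0.636). Once the gonads were removed, the male minus female difference of Adm was 0.09 (edgeR adjusted p = 0.894). Intact males were thus the group with the lowest Adm mean, and the means of the other 3 groups (3.76, 3.64 and 3.53 CPM) differ by less than their spread.

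Markers of blood vessel cells were compared in the same way, beside 13.4 percent of all genes called in males (6.78 percent higher), 0.0335 percent in females and 4.01 percent between intact sexes. Of 8 endothelial markers measured, led in level by Flt1, 6 rose in GDX males and 0 fell (median log2 difference 0.49). Their summed level was 98.8, 137, 107, 132 and 116 CPM in intact males 1, 2, 3, 5 and 6, and 195, 198, 163, 173 and 143 CPM in GDX males 1, 2, 4, 5 and 6, with no marker at 0. GDX rat 6, the lowest of its group, was still above every intact male. Of 7 mural markers, led by Myh11, 4 rose (median 0.38), and their sum was 97.9, 122, 114, 132 and 116 CPM in intact and 162, 166, 144, 144 and 140 CPM in GDX males, again without overlap. In females the endothelial sum was 95.02 to 179 CPM in intact and 155 to 227 CPM in OVX rats, 1 of 8 endothelial markers (Kdr) was called higher by edgeR and 7 had an unadjusted p under 0.05 (median 0.49), as had 10.2 percent of all genes, and DESeq2 called Kdr and Egfl7. Of the 7 mural markers in females edgeR called 0, 3 had an unadjusted p under 0.05 (median 0.25) and DESeq2 called 1 (Myh11). In the same females Epas1 stood at 0.14 and Adm at -0.05, neither of them called. Kdr had a lower level in long-fragment than in short-fragment libraries of intact rats (-0.31, unadjusted p = 0.0265, edgeR adjusted p = 0.575), and 4 of the 6 intact females have long-fragment libraries. Between intact sexes the endothelial median was -0.16 with 1 marker (Cdh5) lower in males, while DESeq2 alone called another (Egfl7) higher in males (0.46, adjusted p = 0.0435). Whether vessel cells have a part in the Epas1 and Adm values was not tested.

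Markers of other cells were set against the same shares of all genes, 13.4 percent called in males (6.78 percent higher) and 4.01 percent between intact sexes (2.56 percent lower). By edgeR all 10 meningeal and fibroblast markers, led by Col1a1, rose in GDX males (median 1.59), and DESeq2 called 9 of them. Their sum was 195, 133, 135, 90.5 and 68.7 CPM in intact and 181, 298, 426, 555 and 454 CPM in GDX males in the order above. The same list had 7 of 10 lower in intact males than in intact females (median -1.23), and 3 of 3 tested Schwann cell markers were lower there too (median -1.495), in the comparison in which Adm was lower as well. In females edgeR and DESeq2 called 0 of the 10 meningeal and fibroblast markers and 0 had an unadjusted p under 0.05. Their log2 difference in females was above 0 in 10 of 10 (median 0.33). Of 2 tested erythroid markers edgeR called 2 higher in GDX males, and DESeq2 called 1, Hbb (adjusted p = 0.0589). The sum over all 5 matched erythroid genes, led by Hbb, was 2.11 to 4.72 CPM in intact males and 3.487, 3.477, 18.98, 7.53 and 9.78 CPM in GDX males 1, 2, 4, 5 and 6, so GDX rats 1 and 2 lay within the intact range. In females that sum was 0.898 to 5.81 CPM in intact and 6.12 to 8.42 CPM in OVX rats, without overlap, and 3 of 3 tested erythroid markers had an unadjusted p under 0.05 (median 0.90). Only 2 erythroid markers were tested in males and between intact sexes, and 3 only in fits that hold OVX females. The filter on low counts may thus have favoured a marker high in OVX females, so the count of 3 is no independent evidence. Of the remaining lists in males, 2 of 7 astrocyte, 1 of 6 oligodendrocyte and 2 of 3 Schwann cell markers rose and 2 of 6 neuron and 1 of 6 motor neuron markers fell by edgeR. DESeq2 called 2 astrocyte, 2 oligodendrocyte, 0 Schwann cell, 2 neuron and 2 motor neuron markers in males. Of 5 microglial markers edgeR called 0, with 1 at an unadjusted p under 0.05 and 1 (P2ry12) called by DESeq2. In females edgeR called 0 of the markers outside the endothelial list, where 5 of 6 motor neuron (median -0.38), 4 of 6 neuron (median -0.16), 3 of 7 astrocyte, 2 of 5 microglial, 1 of 6 oligodendrocyte and 1 of 3 Schwann cell markers had an unadjusted p under 0.05, beside 10.2 percent of all genes. DESeq2 called Slc18a3 of the motor neuron, Nefl, Stmn2 and Tubb3 of the neuron, Slc1a3 of the astrocyte and Hbb of the erythroid markers in females. In intact rats all 6 motor neuron and 3 of 6 neuron markers were higher in long-fragment libraries at an unadjusted p under 0.05, and 1 neuron marker lower. Such libraries come from 4 of 6 intact and 0 of 6 OVX females. For the motor neuron and neuron markers, class and surgery thus cannot be fully told apart. For the interaction edgeR called 0 markers of any list. There 8 of 10 meningeal and fibroblast (median 1.24) and 3 of 3 Schwann cell markers (median 0.9995) had an unadjusted p under 0.05, beside 11.6 percent of all genes, and DESeq2 called Slc6a13, Foxc1, Slc22a6, Cdh5 and Slc1a3. At an unadjusted p under 0.05 the interaction also had 1 of 8 endothelial, 1 of 7 mural, 2 of 7 astrocyte, 2 of 6 neuron and 0 of the microglial, oligodendrocyte, motor neuron and erythroid markers. The part of these cells in the values of the 10 genes was not tested.

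Around the 10 genes, 5 lists cover the rest of the pathway. Among 12 tested HIF regulators in males edgeR called 0, with 0 at an unadjusted p under 0.05, which 23.8 percent of all genes had, and 0 called by DESeq2 (median 0.02). The smallest p values there belonged to Siah2, a ligase that acts on prolyl hydroxylases, at 0.19 (edgeR adjusted p = 0.259; called without GDX male 4 at 0.27, edgeR adjusted p = 0.062), and to Hif3a, a HIF alpha that can dampen the response, at 0.60 (edgeR adjusted p = 0.357). Of 18 tested glycolytic HIF targets 2 rose and 5 fell (median -0.07), beside 13.4 percent of all genes called in males. Those that rose were the glucose transporter gene Slc2a1 (0.26, SE 0.06, edgeR adjusted p = 0.0169) and the hexokinase gene Hk2 (0.30, SE 0.07, edgeR adjusted p = 0.0143). Those that fell were the enzyme genes Gpi with a log2 difference of -0.16, Pfkp with -0.13, Aldoa with -0.17, Pgam1 with -0.14 and Pkm with -0.14, with edgeR adjusted p from 0.0244 to 0.0839.

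Hk2 stood at 26.4, 25.5, 21.6, 25.8 and 23.2 CPM in intact males and 31.2, 30.8, 29.9, 31.7 and 27.6 CPM in GDX males, which did not overlap. Such separation of the male groups held for 7.17 percent of all 14931 genes. Slc2a1 stood at 79.7, 71.5, 82.8, 91.6 and 81.2 CPM in intact and 102, 102, 89.4, 99.9 and 94.8 CPM in GDX males, where GDX rat 4 lay below intact rat 5. With the fragment class as a term the list kept 1 of its 7 calls (Gpi), and among short-fragment libraries alone 0. In that order, the log2 difference of Aldoa was -0.1765 and -0.1752 and that of Pgam1 -0.141 and -0.1395. Pfkp was at -0.1404 and -0.139 and Pkm at -0.1282 and -0.1268, while Gpi was at -0.2134 among short-fragment libraries alone. In those fits Slc2a1 had edgeR adjusted p of 0.114 and 0.172 and Hk2 of 0.16 and 0.154, at log2 differences of 0.23 to 0.26. Gpi was lost without any of intact males 1, 2 and 5 and GDX males 4, 5 and 6, its edgeR adjusted p reaching 0.143. Pfkp was lost without any of intact males 1, 2 and 6 and of GDX males 1, 4, 5 and 6 (edgeR adjusted p of 0.107 to 0.184), and Pgam1 without GDX male 5 (edgeR adjusted p = 0.106). With the rat number as a block Pfkp (-0.12, edgeR adjusted p = 0.146) and Pkm (-0.12, edgeR adjusted p = 0.14) were lost, and with no filter on low counts Pfkp (-0.13, edgeR adjusted p = 0.115).

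Of 20 other HIF targets tested in males 2 rose and 1 fell (median 0.10), beside 13.4 percent of all genes called. The stress gene Ndrg1 rose by 0.19 (edgeR adjusted p = 0.0236) and the transferrin receptor gene Tfrc by 0.16 (edgeR adjusted p = 0.0774), and both calls were lost with the fragment class as a term, at log2 differences of 0.1813 and 0.1848 (edgeR adjusted p of 0.144 and 0.175), and among short-fragment libraries alone, at 0.1824 and 0.1862 (0.196 and 0.22). With the rat number as a block (0.14, edgeR adjusted p = 0.106) or no filter on low counts (0.15, edgeR adjusted p = 0.111) Tfrc was lost as well. Tfrc was also lost without each of intact males 1, 2 and 5 and GDX males 4, 5 and 6 (edgeR adjusted p of 0.111 to 0.174). Vegfa, the main growth factor of blood vessels, was 113, 123, 93.5, 109 and 109 CPM in intact and 96.6, 100, 95.9, 96.6 and 90.1 CPM in GDX males. Intact rat 3 lay within the GDX range, and Vegfa fell by 0.19 log2 units (SE 0.06, edgeR adjusted p = 0.0628). It stayed called in all 8 other fits with an adjusted p but was lost without each of intact males 1, 2 and 5 and GDX males 4, 5 and 6, the adjusted p reaching 0.149.

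Of 11 genes of erythropoietin signalling, 1 rose in males and 0 fell (median 0.09), beside the same 13.4 percent of all genes. It was Jak2, the kinase bound to the receptor, up by 0.24 (SE 0.06, edgeR adjusted p = 0.0274), a call lost with the fragment class as a term (0.24, adjusted p = 0.14), among short-fragment libraries alone (0.24, adjusted p = 0.18) and with the rat number as a block (0.19, adjusted p = 0.104). The feedback gene Socs3 had the next smallest p, at 0.75 (SE 0.29, edgeR adjusted p = 0.127), and was not called. Without GDX male 4 Socs3 was called (0.89, edgeR adjusted p = 0.0817). As background, JAK2 also serves other cytokine receptors.

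Adrenomedullin acts through CALCRL, a receptor whose partner RAMP protein sets its ligand. Of 5 tested genes of that list, 2 rose in GDX males and 0 fell (median 0.25), beside 13.4 percent of all genes called, and the sixth, Adm2, had 0 reads in every group. Calcrl was 55.1, 48.6, 61.8, 54.3 and 60.0 CPM in intact and 63.6, 62.9, 73.2, 75.0 and 76.6 CPM in GDX males. No GDX male fell within the intact range, and the male groups of 7.17 percent of all 14931 genes likewise did not overlap. Calcrl rose by 0.33 log2 units (SE 0.07, edgeR adjusted p = 0.0163). That call was kept in all 8 other fits with an adjusted p (0.00107 to 0.0859) and in all 10 fits without 1 rat (0.00784 to 0.0471). Ramp3 was 4.30, 4.80, 2.94, 4.02 and 3.15 CPM in intact and 7.58, 6.37, 4.05, 5.28 and 5.28 CPM in GDX males. Only GDX rat 4 lay within the intact range, and Ramp3 rose by 0.57 (SE 0.19, edgeR adjusted p = 0.0744), a call lost without each of 8 of the 10 rats (kept without intact male 2 or GDX male 4, the adjusted p being 0.0463 to 0.148), with the fragment class as a term (0.37, edgeR adjusted p = 0.433) and among short-fragment libraries alone (0.37, edgeR adjusted p = 0.441). CALCRL is abundant in vessel endothelium, whose markers rose in the same rats, and their part in its rise was not tested.

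**Figure D4:**
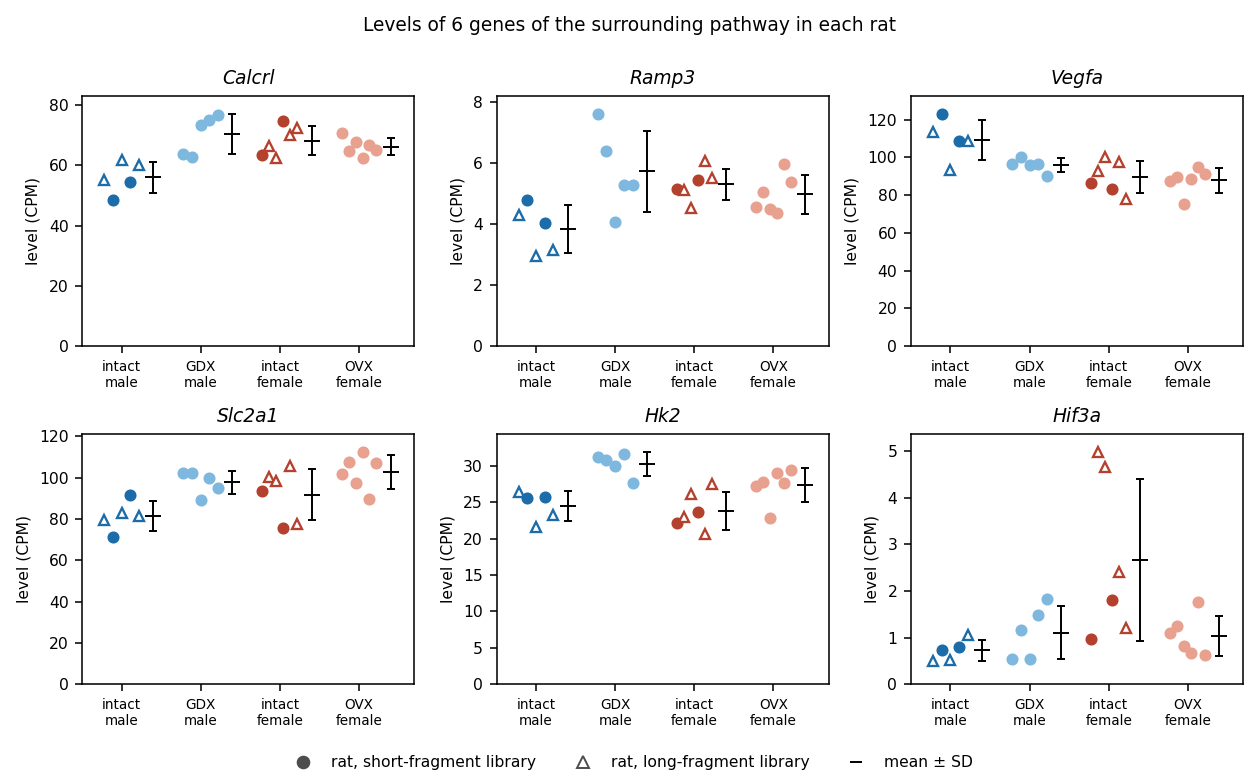
Level in CPM (y axis, from 0) of 6 genes of the surrounding pathway in each rat of 4 groups (x axis), with filled circles for short-fragment and open triangles for long-fragment libraries and black bars for the group mean ± SD. GDX males lie above all intact males for Calcrl and Hk2 (male groups did not overlap for 7.17 percent of all genes), and intact females 2 and 3 reach the highest Hif3a levels.

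In females edgeR called 0 genes of all 5 lists. At an unadjusted p under 0.05, which 10.2 percent of all genes had, there were 1 of 12 HIF regulators, 2 of 18 glycolytic targets, 2 of 21 other targets, 3 of 11 genes of erythropoietin signalling and 0 of 5 of adrenomedullin signalling, and DESeq2 called 1 gene in all, Hif3a. Hif3a stood at 0.959, 2.11 and 4.98 CPM (lowest, median, highest) in intact and at 0.624, 0.959 and 1.77 CPM in OVX females, on 8 to 75 reads per library. The female groups overlapped, and intact females 2 and 3 lay far above the rest. Its log2 difference was -1.37 (SE 0.40, edgeR adjusted p = 0.252; DESeq2 adjusted p = 0.0637), and without intact female 1 edgeR called it at -1.55 (adjusted p = 0.0907). With the fragment class as a term the difference was -0.40 (edgeR adjusted p = 0.907) and among short-fragment libraries alone -0.41 (edgeR adjusted p = 0.913). The medians in females were -0.0025 for regulators, -0.04 for glycolytic targets, 0.0029 for other targets, 0.12 for erythropoietin signalling and -0.04 for adrenomedullin signalling. Hk2 stood at 0.20 (edgeR adjusted p = 0.355), Calcrl at -0.04 (edgeR adjusted p = 0.843) and Ramp1 at 0.21 (edgeR adjusted p = 0.618). Other genes with the smallest p of their lists were Elob at -0.05, Pkm at -0.08, Bnip3 at -0.13, Tfrc at 0.10, Stat5a at -0.19 and Gab1 at 0.14, none of them called.

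Calcrl had the smallest interaction p of the adrenomedullin list, 0.37 log2 units (SE 0.09, unadjusted p = 0.000418, edgeR adjusted p = 0.129), and only DESeq2 called it (adjusted p = 0.031). For the interaction edgeR called 0 genes of the 5 lists, with 1, 1, 2, 1 and 2 genes at an unadjusted p under 0.05 in the order above, beside 11.6 percent of all genes. Apart from Calcrl, DESeq2 called, among 243 genes in all, Hif3a (1.98, adjusted p = 0.077), Aldoa (-0.15, adjusted p = 0.0872) and Ndrg1 (0.17, adjusted p = 0.0886). For these 4 genes the call of a difference between the sexes depends on the test.

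**Figure D5:**
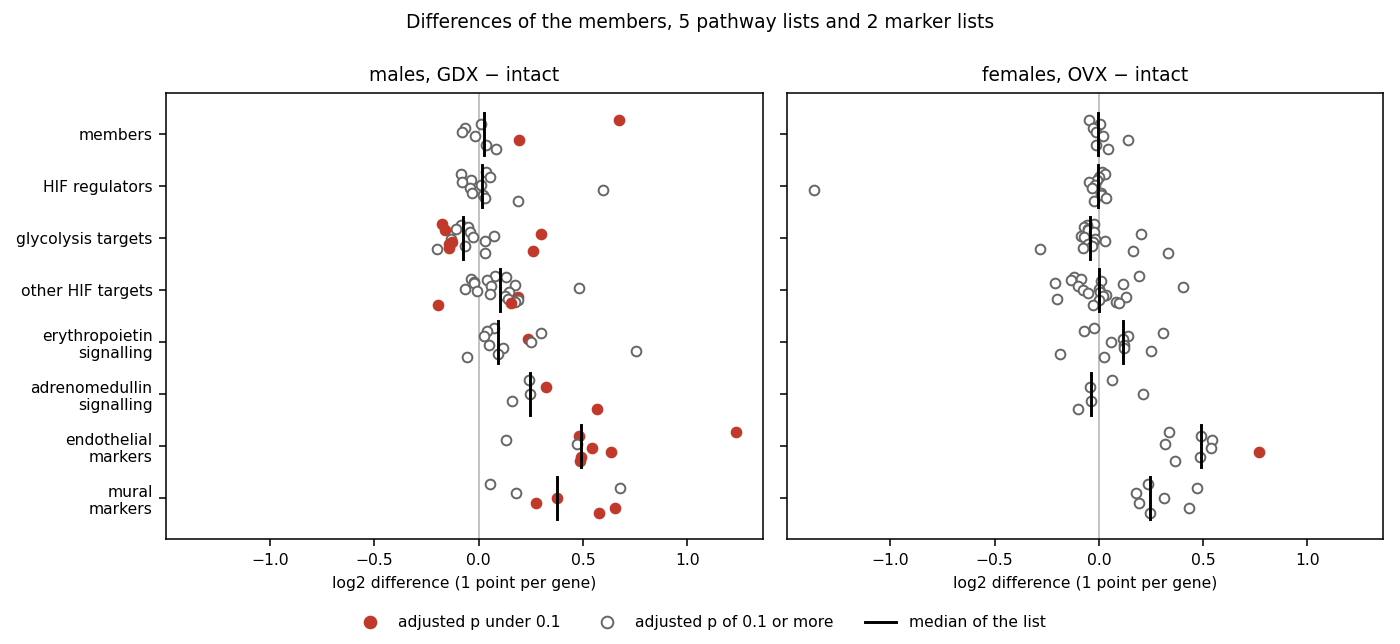
Log2 difference (x axis) of each gene in the 10-gene set, 5 pathway lists and 2 vessel marker lists (y axis) in males (left) and females (right), with red points for an edgeR adjusted p under 0.1 and bars for the list median. In males the glycolysis median is -0.07 and the adrenomedullin signalling median 0.25, and in females the only red point is Kdr among the endothelial markers.

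Between intact sexes 5 of 66 tested genes of the lists were called, beside 4.01 percent of all genes. Hif3a was lower in males, with 7, 10, 7, 13 and 16 reads against 16 to 75 in females, at a log2 difference of -1.86 (SE 0.44, edgeR adjusted p = 0.0349). The call was lost without intact male 1 (-1.75, edgeR adjusted p = 0.102). Intact females 2 and 3, which hold the highest Hif3a counts, are both long-fragment libraries, and in intact rats Hif3a differed by 0.76 between long and short classes (SE 0.433, unadjusted p = 0.1001, edgeR adjusted p = 0.724). Calcrl (-0.28, edgeR adjusted p = 0.0282) and the clock and stress gene Bhlhe40 (-0.21, edgeR adjusted p = 0.0596) were lower in males, while the glycolytic regulator Pfkfb3 (0.16, edgeR adjusted p = 0.0294) and Vegfa (0.29, edgeR adjusted p = 0.0435) were higher. The Vegfa call was lost without intact male 1 (adjusted p = 0.112) or 2 (adjusted p = 0.114), and that of Bhlhe40 without intact males 2 or 6 or intact females 4, 5 or 6 (adjusted p of 0.11 to 0.128). With the rat number as a block the calls of Vegfa (0.27, edgeR adjusted p = 0.159), Bhlhe40 (-0.20, edgeR adjusted p = 0.186) and Calcrl (-0.26, edgeR adjusted p = 0.105) were lost. Among short-fragment libraries alone, with 2 rats per sex, edgeR called none of the 5 (adjusted p of 0.144 to 0.581). There the log2 difference was larger for Calcrl (-0.42) and Vegfa (0.44) and smaller for Hif3a (-0.81), Bhlhe40 (-0.17) and Pfkfb3 (0.10). Between gonadectomized sexes, whose libraries are all of the short class, edgeR called 0 genes of the 5 lists, with 0, 2, 5, 2 and 0 genes at an unadjusted p under 0.05, beside 9.37 percent of all genes. DESeq2 called 1, Ddit4 (-0.36, adjusted p = 0.0113), and 130 genes in all.

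The genes whose levels followed Epas1 and Adm most closely over the 22 rats were found by the root mean square difference of centred log2 CPM. Nearest to Epas1 were Rrbp1 (0.0755), Mylk (0.0824) and Tln1 (0.0873), against a median of 0.215 over 15561 genes. Mylk encodes a kinase of smooth muscle contraction and Tln1 encodes talin, which links integrins to actin. The SD of a gene's own log2 CPM, near the distance that a gene at a constant level would have, was 0.143 for Epas1 and 0.346 for Adm. Nearest to Adm were Cdc42bpg (0.221), Cd44 (0.227) and Hadh (0.23), against a median of 0.38. All 6 rose in GDX males: Rrbp1 by 0.23, Mylk by 0.27, Tln1 by 0.16, Cdc42bpg by 0.46, Cd44 by 0.45 and Hadh by 0.29 log2 units, with edgeR adjusted p from 0.00554 to 0.0561. They were chosen for following Epas1 or Adm over these same rats, so their rise is no independent evidence. The call of Cdc42bpg was lost without intact male 1 or 6 or GDX male 5 (edgeR adjusted p of 0.105 to 0.139), and that of Hadh without intact male 1 or 2 or GDX male 5 (0.103 to 0.13) and with the rat number as a block (0.115). With the fragment class as a term Mylk and Cd44 stayed called and the other 4 did not, and among short-fragment libraries alone Cd44 was lost too (0.38, edgeR adjusted p = 0.108). The log2 differences of those 4 with that term were 0.1917 for Rrbp1, 0.1481 for Tln1, 0.3831 for Cdc42bpg and 0.3011 for Hadh. In females none of the 6 was called by edgeR, the smallest adjusted p being 0.115 for Mylk.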

How the data were processed

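RNA from 22 rats was measured by sequencing, 1 library per rat. The authors deposited a table of raw read counts per gene: reads were aligned to the rat genome Rnor_6.0 and counted per gene with Subread. The submitters' notes name TopHat2 2.0.13 as the aligner and the study's methods name Hisat2, and strand and multimapping settings of the counting are not given in the sources used here, so reads of overlapping or antisense genes cannot be told apart from a gene's own.

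From these counts, R 4.3.3 with edgeR 4.0.16 was run on all 32883 genes: filterByExpr, TMM scaling and the quasi-likelihood test, with only the 2 groups of a comparison in the fit, or all 4 groups for the interaction. Genes were called at a Benjamini-Hochberg adjusted p under 0.1. CPM are counts scaled by the TMM-adjusted library total. Epo and Epor, below the filter, were compared by two-sided exact permutation tests over rats. The steps were tested on simulated data with known changes. Libraries within a group were checked for duplicates, and no pair was alike within sampling noise.

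The genes named beside the 10 are those of 5 pathway lists called in a comparison, and in each list the 2 with the smallest p in males and in females. For each called gene of the 10, the 3 most alike genes (smallest root mean square difference of centred log2 CPM, prior count 2) are named too. Kdr, Cdh5, Egfl7, P2ry12, Slc18a3, Stmn2, Tubb3, Slc1a3, Slc6a13, Foxc1, Slc22a6 and Ddit4, outside that rule, were named after their values were seen. Also outside it, Mbp, Gfap, Nefl, Prph, Flt1, Myh11, Col1a1 and Hbb are named as the most abundant markers of their lists, and Adm2 as a gene without reads. The members and lists were chosen with earlier results of these data known. Among the list genes, Ep300, Pfkfb4, Pecam1, Col1a2, Itgam, Hba1 and Hba2 were not matched by symbol, and 1 more is not reported here.

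Alternatives were DESeq2 1.42.0, RLE scaling, no filter, a filter at 1 CPM, an unadjusted p under 0.1, all 22 rats in 1 fit, the library fragment class as a term, short-fragment libraries only, the rat number as a block, and leaving out each rat. All operated rats have short-fragment libraries. Within a sex, the class term and the short-fragment libraries alone thus set them against the same intact rats and are not separate checks.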

Additional observations from a re-analysis of the deposited data

Results flagged for a closer look

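In each group of rats, the highest and lowest value of the 10 genes and of each gene named by rule beside them was set against the rest of its group by Dixon's test, over 156 groups of 39 genes. In 11 of them 1 rat lay far from the others, and chance alone gives such a value in about 1 in 20 groups (5 percent). Among the hypoxia sensing genes these were Egln2 at 32.965 CPM in GDX male 4, where the other GDX males had 37.0 to 38.6 CPM, and Egln2 at 46.031 CPM in OVX female 5, where the others had 36.0 to 39.2 CPM. Vhl stood at 37.197 CPM in intact male 3, above the 33.1 to 33.9 CPM of the other intact males. Epo stood at 0.065207 CPM in GDX male 6 and at 0.20731 CPM in intact female 2, on 1 and 3 reads, with 0 in the other rats of each group. Where all other rats of a group are at 0, any reads in 1 rat meet this test, so these 2 of the 11 show no more than the reads themselves.

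Among the surrounding genes, Siah2 was 9.5923 CPM in GDX male 4 (others 12.6 to 13.8), Hk2 was 22.838 CPM in OVX female 3 (others 27.2 to 29.4) and Gab1 was 120.64 CPM in intact male 3 (others 129.8 to 132.2). Rrbp1, the gene most like Epas1 over the rats, was low in 1 rat of 3 groups: 226.72 CPM in intact male 1 (others 244.6 to 250.8), 261.9 CPM in GDX male 4 (others 289.7 to 297.9) and 243.38 CPM in intact female 4 (others 267.5 to 277.2). GDX male 4 is thus the low rat for Egln2, Siah2 and Rrbp1.

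The effect of gonadectomy on Cd44, a gene like Adm over the rats, differed between the sexes by 0.5064 log2 units in the interaction test (SE 0.104, edgeR adjusted p = 0.0973), with 0.45 in males and -0.05 in females. Cd44 was chosen for its likeness to Adm over these same 22 rats, so this test on it is not independent of that choice. DESeq2 also called it (0.504, adjusted p = 0.00627). The edgeR call was lost with a filter at 1 CPM (0.5067, edgeR adjusted p = 0.101), with the fragment class as a term (0.5015, edgeR adjusted p = 0.113), among short-fragment libraries alone (0.30, edgeR adjusted p = 0.501), with the rat number as a block (0.53, edgeR adjusted p = 0.105) and in 15 of 22 fits that left out 1 rat (edgeR adjusted p of 0.0185 to 0.214 over all 22).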

How the results depend on the processing

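Over the alternative settings, 306 log2 differences of the 8 tested genes kept direction and side of the threshold, 14 turned direction, 5 gained and 11 lost a call. All 5 gains came from the unadjusted p, which can only add calls. Over fits without 1 rat, 479 kept both direction and side, 32 turned direction and 17 lost a call. For the other named genes 252 kept both, 1 gained and 49 lost a call, and without 1 rat 351, 3 and 63. Where not stated, the cause was not tested.

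With an unadjusted p under 0.1, genes called were 4798 in males, 2518 in females, 3420 between intact sexes, 2439 between gonadectomized sexes and 2995 for the interaction, with 1, 3, 1 and 1 of the 8 genes called in the last 4. DESeq2 called 174 genes in females, 130 between gonadectomized sexes and 243 for the interaction. With no filter, 11 genes were called in females and 33 for the interaction, and 1 and 0 of the 8 genes in males and between intact sexes; the 1 CPM filter left 6 for the interaction. All 22 rats in 1 fit gave 9 genes in females, 61 between gonadectomized sexes, and Egln3 there at -0.0009064.

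With the fragment class as a term, genes called were 796 in males, 3 in females and 6 for the interaction, and 0 of the 8 genes in males and between intact sexes. Arnt was -0.01629 in males and -0.006911 in females, Egln1 0.1011 and Adm 0.06289 in females. Short-fragment libraries alone, which are fewer samples, gave 440 genes in males, 34 between intact sexes and 5 for the interaction, and 0 of the 8 genes in males and between intact sexes. Arnt was then -0.01496 in males and -0.01059 in females, Egln1 0.09756 and Adm 0.05906 in females, Egln1 0.04445 between intact sexes, and Epas1 -0.01129 and Arnt -0.004907 for the interaction.

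The rat numbers do not pair the rats: correlations of same-numbered rats were -0.115 to 0.0627, and 0 of 20 had their own number as best match. With the replicate block 1274 genes were called in males, 0 in females, 255 between intact sexes and 0 for the interaction, and 0 of the 8 genes in males (Epas1 edgeR adjusted p = 0.107, Adm 0.125) and between intact sexes; Egln3 was -0.01404 between gonadectomized sexes and Egln1 0.002757 for the interaction.

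Leaving out 1 rat, genes called ranged from 1202 to 2446 in males, 0 to 113 in females, 352 to 777 between intact sexes, 23 to 44 between gonadectomized sexes and 1 to 275 for the interaction, and of the 8 genes 0 to 2 in males and 0 to 1 between intact sexes. Log2 differences that took both signs were Arnt (-0.01389 to 0.05014) and Egln3 (-0.04293 to 0.02172) in males; Arnt (-0.0196 to 0.02688), Egln2 (-0.06438 to 0.00565), Egln3 (-0.009492 to 0.04358) and Adm (-0.1143 to 0.01834) in females; Egln3 between intact (-0.00261 to 0.05598) and gonadectomized sexes (-0.02452 to 0.03467); and Arnt (-0.01494 to 0.04901) and Egln3 (-0.0582 to 0.004446) for the interaction.

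The groups hold 5 or 6 rats, Adm rests on 26 to 71 reads per library, and Epo and Epor on at most 8, so small differences in these 3 genes cannot be seen at this depth. Fragment class and surgery cannot be fully told apart, since all operated rats have short-fragment libraries. RNA levels do not measure HIF protein, which oxygen controls. Bulk tissue does not assign the reads to cells.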
